A study of Mus musculus with 13 samples.

Results

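The genes described here encode receptors for the transmitters GABA, glycine and glutamate in the mouse. They were taken from the arrays by symbol pattern (Gabr, Gabbr, Glra, Glrb, Gria, Grid, Grik, Grin and the numbered Grm genes). The pattern itself uses no measured values, but this set of genes was chosen with earlier results of these data known. The pattern found 48 genes among 33581 genes and unnamed features on the array. The 48 genes were measured by 65 of 41174 probes, of which 63 were named by accession and 2 by the symbol in their description. Receptor genes whose probes carry only a description in words were not reached by the pattern and are not analysed here. Grina and Grid2ip match the pattern and are counted among the 48 genes, but encode proteins associated with glutamate receptors, not subunits. The protein of Grina is associated with NMDA receptors.

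Expression was measured on 13 Agilent arrays of mouse RNA in 3 groups: 3 control samples of nonvascular retina (the retina without its vessels, as labelled), 4 stalk samples and 6 tip samples. A vessel sprout is led by a tip cell, behind which come the stalk cells, and the study sought genes that set retinal tip cells apart. The labels give no strain, genotype, age, treatment or way of collecting the cells, and do not tie samples to animals, so p-values measure only the spread between these samples, which may be technical. Each array carried the sample in Cy5 and Universal Mouse Reference RNA, common to all 13 arrays, in Cy3. Levels are given as the log2 ratio of sample over reference, which orders the groups for a gene but does not order genes. A difference is on the same log2 scale. A gene was called where limma's test over 32054 genes gave an adjusted p under 0.05. Of these 32054, 16544 had a symbol and the others were unnamed features. Shares of all genes given below include both, while every receptor gene has a symbol.

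Glutamate is the main excitatory transmitter of the retina, and it acts on AMPA, kainate and NMDA receptors, which are ion channels, and on metabotropic receptors, which signal through G proteins. GABA and glycine are inhibitory and act on chloride channels, the GABA-A and glycine receptors, while GABA-B receptors couple to G proteins. In the retina these receptors are best known from ganglion, amacrine, horizontal and bipolar cells, with the metabotropic receptor Grm6 serving the synapse between photoreceptors and ON bipolar cells.

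Vessel markers and ganglion cell markers set the vascular groups apart from nonvascular retina, while markers of other retinal neurons, given further on, differed less evenly. Over all genes tested, 11.1% were called higher and 16.8% lower in tip than in nonvascular retina, and 11.3% and 18.6% in stalk. Endothelial markers were called higher than in nonvascular retina for 17 of 19 genes in tip and 16 of 19 in stalk, with Tek and Clec14a called in neither. Their mean log2 ratio per array was 0.07 to 0.41 in nonvascular retina, 3.05 to 3.18 in stalk and 2.52 to 2.80 in tip. Pericyte markers were higher for 13 of 17 genes in tip and 14 of 17 in stalk. Ganglion cell markers were lower for 9 of 11 genes in tip and 8 of 11 in stalk, and their mean log2 ratio was 2.19 to 2.44 in nonvascular retina, −0.44 to 0.46 in stalk and 0.28 to 0.61 in tip. Arrays differed in brightness, with a median red signal above background of 166 to 282 in nonvascular, 98.1 to 141 in stalk and 105 to 292 in tip samples. The scanner read the stalk samples before the tip samples and the nonvascular ones after both, except for tip replicate 5, read on a later day. The effects of group and of reading order cannot be told apart.

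Many receptor genes were lower in tip and in stalk than in nonvascular retina. Between tip and stalk the share of receptor genes called, 2.08% higher, was near that of all genes. Of the 48 genes, 26 were called lower and 0 higher in tip than in nonvascular retina (limma, 27 with an unadjusted p under 0.05). An unadjusted p under 0.05 was seen there for 11765 of the 32054 genes tested. Over all genes tested, 16.8% were called lower and 11.1% higher in that comparison. In stalk 23 genes were called lower and 1 higher, against 18.6% and 11.3% of all genes (29.8% in either direction, and 28.0% in tip). Without Grina and Grid2ip, 25 of 46 genes were called lower in tip and 22 in stalk. The median difference of the receptor genes was −0.27 in tip and −0.21 in stalk, beside −0.01 and 0.00 over all genes tested. Both comparisons use the same 3 nonvascular arrays and are therefore not independent. In 25 genes every tip array lay below every nonvascular array, and in 25 every stalk array did, while this held for 16.7% and 21.3% of all genes. The reverse, every vascular array above every nonvascular one, was seen in 1 receptor gene in tip and 4 in stalk, and in 11.0% and 16.0% of all genes. Between tip and stalk 1 gene was called higher and 0 lower (3 with an unadjusted p under 0.05), with 1.47% of all genes called higher and 1.32% lower (2.79% in all). For 5784 of the 32054 genes tested, the unadjusted p from limma was under 0.05 between tip and stalk. In 1 receptor gene every tip array lay above every stalk array and in 0 below, against 2.73% and 2.74% of all genes. In bulk samples such as these, fewer cells of a type and less RNA per cell cannot be told apart. The mean log2 ratio over the 48 genes was 0.71, 0.72 and 0.55 in the nonvascular arrays, 0.07 to 0.14 in stalk and 0.08 to 0.17 in tip, so single arrays did not bridge the groups.

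**Figure D1:**
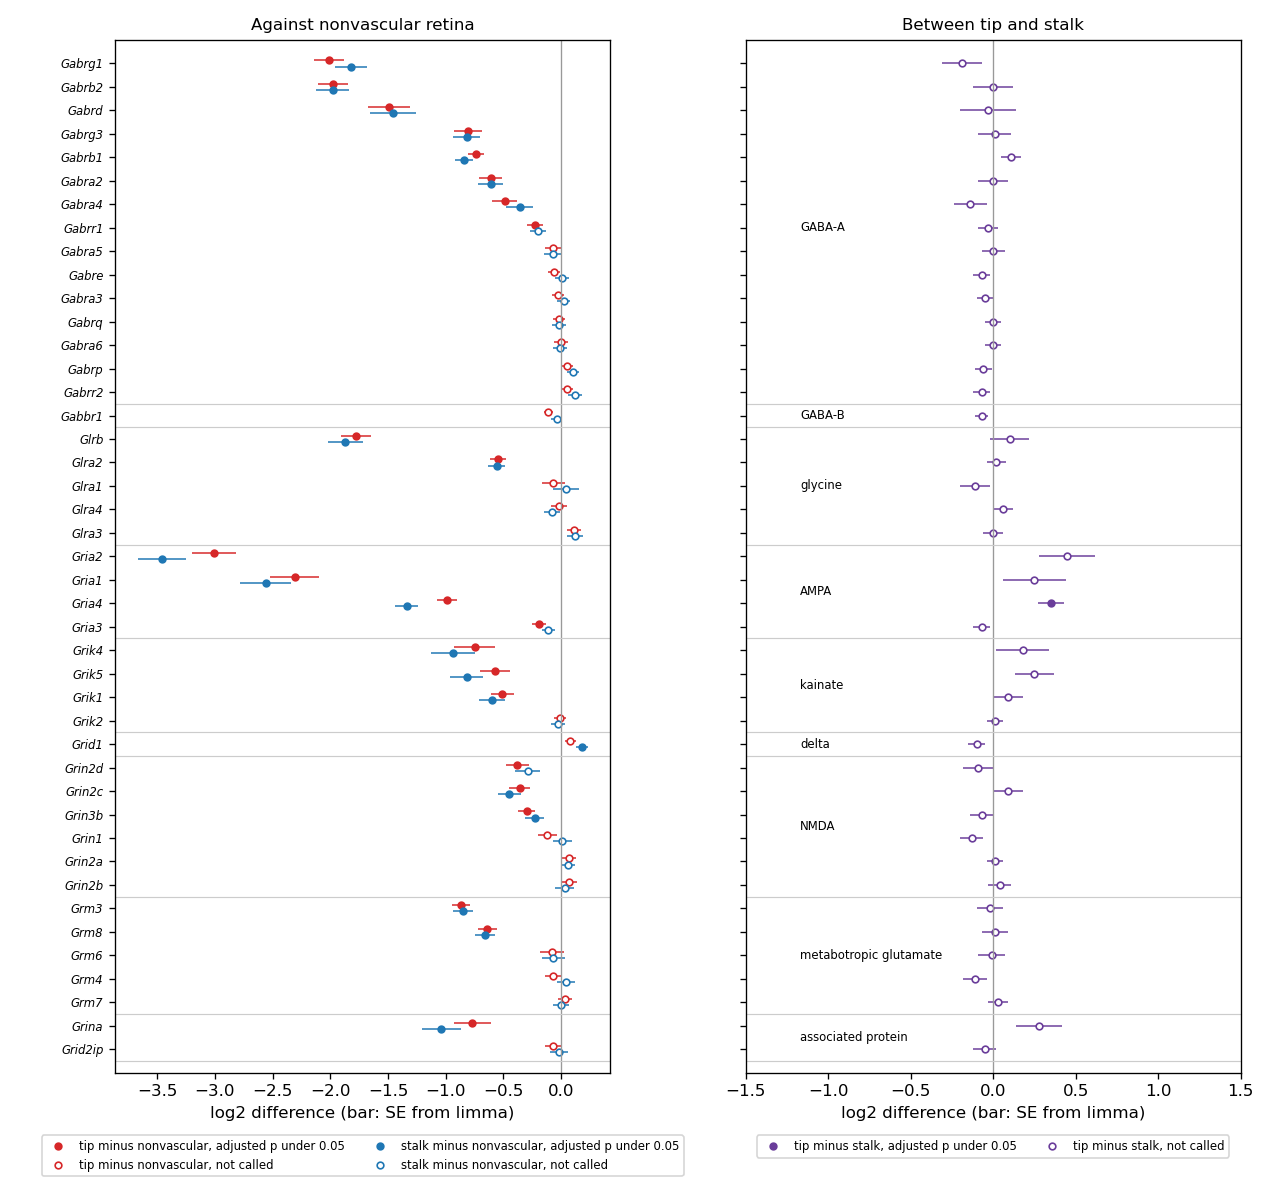
Log2 difference of 43 of the receptor genes, with the standard error from limma as a bar, grouped by receptor class; the left panel shows tip (red) and stalk (blue) minus nonvascular retina, and the right panel tip minus stalk. Filled points have an adjusted p under 0.05: 23 genes lie to the left in tip and 20 in stalk, Grid1 in stalk to the right, and Gria4 is the 1 filled point between tip and stalk.

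With the brightest probe standing for each gene, the AMPA receptor genes, whose products carry most fast excitatory transmission, held the 2 largest differences of the 48 genes in each vascular group, those of Gria2 and Gria1. The rank of Gria1 depends on that choice. The mean of its 2 probes gave −1.30 in tip and −1.38 in stalk, smaller than the −2.01 and −1.82 of Gabrg1, which has 1 probe. All 4 AMPA receptor genes were called lower in tip and 3 of 4 in stalk, with a median difference of −1.65 and −1.95. Counts of calls per receptor class, here and below, stand beside 16.8% of all genes called lower in tip and 18.6% in stalk. In small classes a few calls cannot be told from those shares. Gria2 encodes the subunit that keeps calcium out of most AMPA receptors. Its log2 ratio was 4.07, 4.11 and 3.65 in the nonvascular arrays, 0.56, 0.44, 0.16 and 0.79 in stalk, and 0.59 to 1.33 with a median of 0.92 in tip. The lowest nonvascular array thus lay more than 2 log2 units above every vascular array. The difference was −3.01 ± 0.19 in tip (SE, an 8.06-fold lower ratio, limma adjusted p = 1.41e-07) and −3.46 ± 0.21 in stalk (11.0-fold, adjusted p = 8.45e-08). Gria1, the subunit trafficked to synapses during potentiation, stood at 3.55, 3.70 and 3.44 in nonvascular retina, at 1.23, 1.02, 0.43 and 1.33 in stalk, and at 0.91 to 1.70 with a median of 1.26 in tip. It remained above the reference in every vascular array, and differed by −2.31 ± 0.21 in tip (adjusted p = 2.52e-06) and −2.56 ± 0.22 in stalk (adjusted p = 1.98e-06). Gria4 encodes a subunit of fast-gating AMPA receptors. Its ratios were 1.47, 1.26 and 1.21 in nonvascular retina, 0.02, 0.02, −0.09 and −0.07 in stalk, and 0.06 to 0.47 with a median of 0.38 in tip. The differences from nonvascular retina were −0.99 ± 0.09 in tip (adjusted p = 2.45e-06) and −1.34 ± 0.10 in stalk (adjusted p = 3.45e-07). The remaining gene, Gria3, was called in tip at −0.19 ± 0.06 (adjusted p = 0.0236), and its call ended without nonvascular replicate 1 (adjusted p = 0.116) or replicate 3 (0.0563), with a range of 0.0085 to 0.626 over 24 alternatives, which are 13 fits without 1 array and 11 other settings. In stalk it differed by −0.11 and was not called.

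Gria4 was the 1 receptor gene called between tip and stalk. Each of the 6 tip arrays (0.06 to 0.47) lay above each of the 4 stalk arrays (−0.09 to 0.02), a difference of 0.35 ± 0.08 (SE, limma adjusted p = 0.0369). The call ended in 15 of 24 alternatives, with an adjusted p of 0.0063 to 0.38 and a difference of 0.13 to 0.65. It ended without nonvascular replicate 2 (adjusted p = 0.0518), without any single stalk array (0.0773, 0.0641, 0.109 and 0.0759 for replicates 1 to 4) and without any of tip replicates 1 to 5 (0.0687, 0.081, 0.0807, 0.0517 and 0.0642), and it held without tip replicate 6 (0.0063). With array brightness in the model the difference was 0.22 (adjusted p = 0.31), and with the mean of the 3 Gria4 probes 0.13 (0.169). Gria2 (0.45 ± 0.17, adjusted p = 0.199) and Gria1 (0.25 ± 0.19, adjusted p = 0.533) had tip means above stalk means too, with overlapping groups and no call. Ganglion cell markers moved the same way: 9 of 11 had a higher mean in tip than in stalk, with a median difference of 0.48 and 1 call (Nrn1). Other markers differed the opposite way, with 10 of 17 pericyte and 5 of 19 endothelial markers called lower in tip than in stalk (median differences −0.72 and −0.33). Of all genes tested, 1.32% were called lower and 1.47% higher in tip than in stalk, with a median difference of 0.0. The part of these cell types in the Gria4 difference was not tested.

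Kainate receptors are glutamate-gated channels that also modulate transmitter release, and 3 of their 4 genes were called lower in each vascular group, with median differences of −0.54 in tip and −0.71 in stalk. Grik5, a high-affinity subunit that works together with the other kainate subunits, stood at 1.80, 2.18 and 2.02 in nonvascular retina, at 1.08, 1.42, 0.88 and 1.35 in stalk, and at 1.30 to 1.76 with a median of 1.37 in tip. The groups came close at their edges but did not overlap, and the differences were −0.57 ± 0.13 in tip (adjusted p = 0.0052) and −0.82 ± 0.14 in stalk (adjusted p = 0.000623). Grik4, the other high-affinity subunit, had nearly equal nonvascular ratios of 1.31, 1.27 and 1.32. Its stalk ratios were spread out, at 0.20, −0.01, 0.27 and 0.98, and its tip ratios ran from 0.31 to 0.81. It differed by −0.75 ± 0.18 in tip (adjusted p = 0.00566) and −0.94 ± 0.19 in stalk (adjusted p = 0.00203). Grik1, a subunit of kainate receptors on OFF bipolar cells, was well above background on all 3 nonvascular arrays, on 3 of 6 tip arrays and on 0 of 4 stalk arrays. The fitted difference of its log2 ratio in stalk was −0.60 ± 0.11 (adjusted p = 0.000761). On the separate scale of the normalized red signal, which differs from the ratio and is open to dye bias, it was at least 1.59-fold higher in nonvascular retina (mean log2 signal 6.64) than in stalk (5.97, taking the lowest signal well above background where the probe was below it). Grik2, a core kainate subunit, was at 0.18 to 0.26 in nonvascular retina and 0.15 to 0.28 in stalk and 0.12 to 0.33 in tip and was not called.

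NMDA receptors are calcium-permeable channels that need glutamate together with glycine or serine, and of their 6 genes 3 were called lower in tip and 2 in stalk, and the largest difference was −0.45. Counts this small cannot be told from the 16.8% and 18.6% of all genes called lower in tip and stalk. Grin1, the obligatory subunit, had ratios near 0 in every group: −0.11, 0.14 and 0.03 in nonvascular retina, 0.00, 0.05, 0.09 and −0.03 in stalk, and −0.24 to 0.05 in tip. Its differences of −0.12 ± 0.08 in tip (adjusted p = 0.317) and 0.01 ± 0.08 in stalk (adjusted p = 0.941) were within the spread of the arrays. Grin2c, a regulatory subunit, stood at 0.47, 0.66 and 0.41 in nonvascular retina and at −0.06, 0.08, 0.03 and 0.23 in stalk, with tip arrays at −0.02 to 0.40. It was called at −0.36 ± 0.09 in tip (adjusted p = 0.0106) and −0.45 ± 0.10 in stalk (adjusted p = 0.00411). Grin2d, a regulatory subunit of early development, was the receptor gene furthest below the reference, at −2.17, −2.02 and −2.09 in nonvascular retina, −2.54, −2.19, −2.47 and −2.33 in stalk and −2.81 to −2.35 in tip. It was called in tip (−0.38 ± 0.10, adjusted p = 0.0138) and not in stalk (−0.29 ± 0.11, adjusted p = 0.0677). Grin3b, which lowers the calcium permeability of the receptors it joins, was called at −0.30 ± 0.07 in tip (adjusted p = 0.00751) and −0.23 ± 0.08 in stalk (adjusted p = 0.0439), although nonvascular replicate 3, at −0.12, lay among the tip arrays (−0.31 to −0.10). Without nonvascular replicate 2 none of these tip calls held (adjusted p = 0.0719 for Grin2c, 0.0671 for Grin2d and 0.0571 for Grin3b). The adjusted p over all alternatives ran from 0.00267 to 0.687, from 0.000557 to 0.0671 and from 0.00071 to 0.0884 for these genes in tip. In stalk the Grin3b call ended in 15 of 24 alternatives (adjusted p 0.0038 to 0.427), 10 of them fits without 1 array, and Grin2d was called without stalk replicate 2 (−0.35, adjusted p = 0.0318) or tip replicate 1 (0.014), over a range of 0.00293 to 0.595. The stalk call of Grin2c ended in 4 of 24 alternatives (Feature Extraction log ratios, deposited ratios, the red channel alone and array brightness), with differences of −0.64 to −0.23 and an adjusted p of 0.00177 to 0.209 over all of them. The major regulatory subunits Grin2a and Grin2b differed by 0.07 in tip, and by 0.06 and 0.03 in stalk, without a call.

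The delta receptors resemble other glutamate channels in sequence but bind the cerebellin proteins at synapses and are not opened by glutamate. Grid1 was the 1 receptor gene called higher in a vascular group. It stood at −0.15, −0.16 and −0.29 in nonvascular retina and at 0.00, −0.07, 0.00 and −0.01 in stalk, so the groups did not overlap, and at −0.19 to −0.03 in tip. The difference in stalk was 0.18 ± 0.05, a 1.13-fold higher ratio (adjusted p = 0.0248), and in tip 0.08 ± 0.05 (adjusted p = 0.308). The stalk call ended without nonvascular replicate 3 (0.13, adjusted p = 0.116) and without stalk replicate 1, 3 or 4 (0.058, 0.0543 and 0.051). It ended in 9 of 24 alternatives, with an adjusted p of 0.0168 to 0.268.

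Among metabotropic glutamate receptors, 3 of 6 genes were called lower in each vascular group and 0 higher. Grm3, a Gi-coupled receptor that glia also express in the brain, stood at 1.47, 1.29 and 1.28, against 0.46, 0.30, 0.70 and 0.54 in stalk and 0.38 to 0.59 in tip. It differed by −0.87 ± 0.08 in tip (adjusted p = 3.91e-06) and −0.85 ± 0.09 in stalk (adjusted p = 9.3e-06). Grm8, a presynaptic Gi-coupled receptor, stood at 0.77, 0.95 and 0.49 in nonvascular retina, −0.03 to 0.14 in stalk and 0.01 to 0.22 in tip, and differed by −0.64 ± 0.08 and −0.66 ± 0.09 (adjusted p = 6.69e-05 and 0.000104). Grm6, the receptor of ON bipolar cells, was not called. Its nonvascular value rests on replicates 2 and 3 (0.37 and 0.36), because the spot on replicate 1 was marked as an outlier, and stalk (0.22 to 0.39) and tip (0.12 to 0.52) enclosed both. Its differences of −0.08 in tip and −0.07 in stalk turned to 0.64 (adjusted p = 0.0537, the lowest of its alternatives, which ran up to 0.909) and 0.28 in the red channel alone, without a call. Grm4 and Grm7, presynaptic receptors of the same group as Grm8, differed by −0.07 to 0.04 and were not called. Another Grm7 probe, brighter in nonvascular retina than the one used, differed by −0.37 in tip and −0.33 in stalk. The remaining Grm7 probe differed by 0.08 and 0.05.

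**Figure D2:**
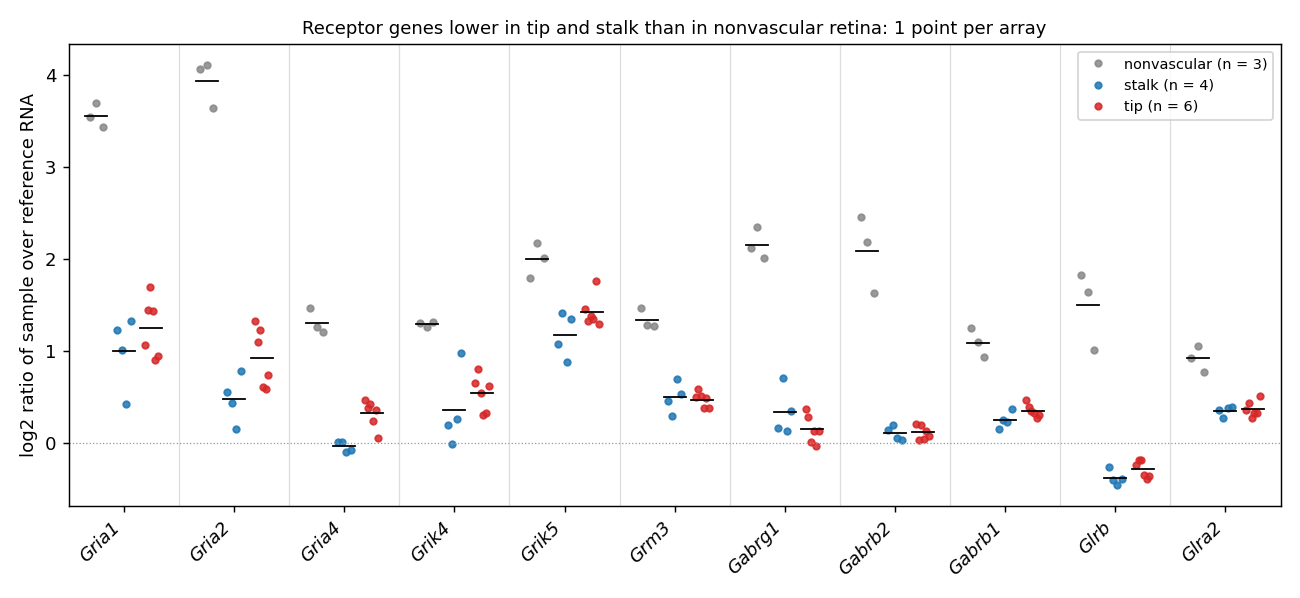
Log2 ratio of sample over reference RNA for 11 called receptor genes, 1 point per array, with nonvascular (n = 3), stalk (n = 4) and tip (n = 6) in grey, blue and red and a line at each group mean. Nonvascular arrays lie above all stalk and tip arrays for every gene plotted, and tip and stalk overlap for each of them except Gria4.

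GABA-A receptors are chloride channels assembled from alpha, beta and gamma or delta subunits, and of their 18 genes 10 were called lower in tip and 9 in stalk, with 0 higher. The median difference was −0.29 in tip and −0.26 in stalk. Gabra3, Gabra5, Gabra6, Gabre, Gabrp, Gabrq and Gabrr2 were among those called in neither group, although averaging probes changed this for Gabra5 and Gabre. Gabrg1 stood at 2.12, 2.35 and 2.01 in nonvascular retina, at 0.17, 0.71, 0.14 and 0.35 in stalk and at −0.03 to 0.37 in tip, with differences of −2.01 ± 0.13 (adjusted p = 1.62e-07) in tip and −1.82 ± 0.14 (adjusted p = 6.64e-07) in stalk. Gabrb2, a subunit of the commonest brain receptor type, was at 2.46, 2.19 and 1.64 against 0.15, 0.20, 0.06 and 0.04 in stalk and 0.04 to 0.21 in tip. It differed by −1.98 ± 0.13 in tip and −1.98 ± 0.14 in stalk (adjusted p = 2.19e-07 and 3.75e-07). Gabrb1 was at 0.94 to 1.25 in nonvascular retina, 0.16 to 0.37 in stalk and 0.28 to 0.47 in tip, and differed by −0.74 ± 0.07 and −0.84 ± 0.08 (adjusted p = 4.02e-06 and 2.4e-06).

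Gabrd, the delta subunit of receptors outside synapses, is named because of its values. So are all other genes outside the 28 that a rule picked, except Grid2ip, and the partner and marker genes singled out further on. The nonvascular arrays of Gabrd disagreed, with 1.91 and 1.77 in replicates 1 and 2 and 0.79 in replicate 3. All its vascular arrays lay at −0.10 to 0.13. It was called at −1.49 ± 0.18 in tip (adjusted p = 3.61e-05) and −1.46 ± 0.20 in stalk (adjusted p = 7.68e-05). Nonvascular replicate 3 was the lowest of its group for 20 of the 26 genes called lower in tip, and it lay close to the other nonvascular arrays for some of them, such as Gria1 (3.55, 3.70 and 3.44). Smaller calls were Gabrg3 (−0.81 and −0.82), Gabra2 (−0.61 in each) and Gabra4 (−0.49 and −0.36) in tip and stalk. For Gabra2 tip replicate 3 had no value. The stalk call of Gabra4 ended in 14 of 24 alternatives (adjusted p 0.0105 to 0.317), among them the fits without nonvascular replicate 1 (0.0857) or 2 (−0.26, 0.192), stalk replicate 2, 3 or 4 (0.0916, 0.0795 and 0.0921) and tip replicate 4 or 5 (0.0549 and 0.051).

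The rho subunits Gabrr1 and Gabrr2 form the GABA receptors of bipolar cell terminals. Gabrr1 stood at 0.49, 0.57 and 0.53 in nonvascular retina, at 0.27, 0.29, 0.46 and 0.31 in stalk and at 0.18 to 0.48 in tip, and was called in tip at −0.23 ± 0.07 (adjusted p = 0.0202) but not in stalk (−0.20 ± 0.07, adjusted p = 0.058). The tip call ended without nonvascular replicate 2 (adjusted p = 0.0847) or 3 (0.0557), and stalk was called without stalk replicate 3 (0.0287) or tip replicate 6 (0.0279). Over 24 alternatives the adjusted p ran from 0.00431 to 0.153 in tip and from 0.0279 to 0.459 in stalk. In the red channel alone, without the reference, Gabrr1 was 0.33 higher in tip (adjusted p = 0.102), and 0.17 higher in stalk (0.459), so its direction depends on the scaling. Gabrr2 was at −0.14 to −0.08 in nonvascular retina, −0.03 to 0.06 in stalk and −0.16 to 0.06 in tip, and its differences of 0.05 in tip and 0.12 in stalk were not called. Gabbr1, the GABA-binding subunit of the GABA-B receptor, differed by −0.11 ± 0.04 in tip (adjusted p = 0.0935), with all tip arrays (0.12 to 0.21) at or below the nonvascular ones (0.21 to 0.30), and by −0.04 in stalk, without a call. In the red channel alone it was 0.30 higher in tip, also without a call.

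Glycine receptors combine alpha subunits, which bind the ligand, with the beta subunit, which ties the receptor to the scaffold gephyrin at synapses. Of 5 genes 2 were called lower in each vascular group. As a count this cannot be told from the 16.8% and 18.6% of all genes called lower in tip and stalk. Glrb, the beta subunit, stood at 1.83, 1.65 and 1.02 in nonvascular retina and below the reference in every vascular array, at −0.26, −0.40, −0.45 and −0.39 in stalk and −0.39 to −0.18 in tip. The difference was −1.78 ± 0.13 in tip (a 3.43-fold lower ratio, adjusted p = 6.07e-07) and −1.87 ± 0.15 in stalk (3.67-fold, adjusted p = 6.91e-07). Glra2, the alpha subunit of the developing nervous system, was at 0.93, 1.06 and 0.78 against 0.36, 0.28, 0.39 and 0.40 in stalk and 0.28 to 0.52 in tip, and differed by −0.55 ± 0.07 and −0.56 ± 0.07 (adjusted p = 4.07e-05 and 5.72e-05). In the red channel alone Glra2 was not called (−0.48 and −0.42, adjusted p = 0.0863 and 0.168), the highest adjusted p of its alternatives, which began at 2.91e-05 and 3.51e-05. Glra1, the alpha subunit of the adult spinal cord, ranged from −0.02 to 0.32 in nonvascular retina, 0.05 to 0.26 in stalk and −0.12 to 0.26 in tip and was not called. Glra3 was dim, well above background on 1 of 3 nonvascular, 1 of 4 stalk and 4 of 6 tip arrays, and its differences of 0.11 and 0.12 were not called. Glra4 was likewise not called (−0.02 and −0.08).

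The promoters of Gria2, Glrb and Glra2 are shown because all 3 genes were called lower in both vascular groups and hold a match to a piece of RE1, the element through which the repressor REST silences neuronal genes outside neurons. The sequences are RefSeq's (GRCm38.p6), run from 250 bases before to 50 after the annotated start, and are printed 5′ to 3′ on the strand of the gene. Capitals mark the right-hand piece of RE1, GGACAGC, or its reverse complement GCTGTCC. Gria2 lies at chr3:80802786-80803085 on the minus strand, Glrb at chr3:80913611-80913910 on the minus strand, and Glra2 at chrX:165327344-165327643 on the minus strand.
Gria2: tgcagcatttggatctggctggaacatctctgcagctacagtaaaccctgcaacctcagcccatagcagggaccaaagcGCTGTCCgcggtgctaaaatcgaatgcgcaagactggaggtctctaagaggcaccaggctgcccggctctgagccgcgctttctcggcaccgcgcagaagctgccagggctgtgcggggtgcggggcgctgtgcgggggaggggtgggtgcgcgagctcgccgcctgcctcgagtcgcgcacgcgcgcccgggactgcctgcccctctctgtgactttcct
Glrb: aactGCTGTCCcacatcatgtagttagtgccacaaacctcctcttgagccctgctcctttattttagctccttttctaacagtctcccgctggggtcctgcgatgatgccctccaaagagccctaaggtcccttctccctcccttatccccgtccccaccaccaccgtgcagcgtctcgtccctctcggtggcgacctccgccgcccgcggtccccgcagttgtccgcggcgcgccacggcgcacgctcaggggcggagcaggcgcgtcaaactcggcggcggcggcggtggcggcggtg
Glra2: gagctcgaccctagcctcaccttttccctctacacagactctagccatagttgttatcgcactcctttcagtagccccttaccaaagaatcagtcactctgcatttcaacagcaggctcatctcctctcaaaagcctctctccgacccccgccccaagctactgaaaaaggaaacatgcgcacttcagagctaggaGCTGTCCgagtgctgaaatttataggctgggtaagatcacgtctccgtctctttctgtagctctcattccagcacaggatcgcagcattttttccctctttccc
The match begins at position −171 in Gria2, −246 in Glrb and −54 in Glra2, counted from the annotated start, and each lies on the strand opposite to the gene. Promoter sequences were available for 33 of the 48 genes, in 41 windows. The right-hand piece was found on either strand in 3 of the 41 windows (7.32%), close to the 6.56% of 32851 windows of all genes. The left-hand piece, CAGCACC, was found in 1 of 41 (2.44%, Gabrq), against 7.14%, and both pieces in their RE1 order, CAGCACC and GGACAG parted by 2 bases, which overlaps both searches, in 0 of 41, against 0.0365%. The searches allowed no mismatch. In the Gria2 sequence above, CTGTCC is followed after 2 bases by GGTGCTA, 1 letter from the GGTGCTG of the searched RE1 order on that strand. Near matches of this kind were not counted in any windows. All of these are matches of letters in a short window and say nothing of binding.

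Probes of the same gene disagreed in several places. For 13 of the 48 genes the array holds more than 1 probe, and the brightest stood for the gene. Gabra5 was not called by the probe with the higher mean intensity over the arrays (−0.07 in each group). Its other probe, the brighter of the pair in nonvascular retina (27.6 against 11.3 times the negative control spots), differed by −0.67 in each. With the mean of its probes Gabra5 was called lower in tip and stalk (−0.37 in each, adjusted p = 2.71e-05 and 4.68e-05, against up to 0.854 and 0.846 in other settings), and so was Gabre (−0.17 in tip and −0.12 in stalk, adjusted p = 0.00699 and 0.0493, against up to 0.924 and 0.997). The other direction was seen for Gria1, whose second probe differed by −0.29 and −0.21, and for Gabrb2, with −0.11 and −0.06. It was also seen for Gabrg3, with −0.11 in tip and 0.06 in stalk, and for Gria4. The other Gria4 probes differed by 0.00 and −0.28 in tip and by 0.05 and −0.35 in stalk. With the mean of all probes Gria1 differed by −1.30 in tip and −1.38 in stalk, and Gabrb2 by −1.04 and −1.02. Gabrg3 then differed by −0.46 and −0.38, and Gria4 by −0.42 and −0.55, all of them still called.

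The associated protein gene Grina, of a family that guards against cell death, stood at −0.58, −0.97 and −1.36 in nonvascular retina, −2.09 to −1.89 in stalk and up to −1.53 with a median of −1.72 in tip. It was called lower in tip (−0.77 ± 0.16, adjusted p = 0.00214) and stalk (−1.04 ± 0.17, adjusted p = 0.000352). Grid2ip, the other associated protein gene, differed by −0.07 in tip and −0.02 in stalk and was not called.

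Sizes also depended on how background was treated. The offset added here draws the ratios of dim spots towards 0. With the Feature Extraction log ratios, Grik1 differed by −2.01 in tip and −2.40 in stalk, Grm8 by −1.65 and −1.69, Grik4 by −1.34 and −1.67, Gabrb1 by −1.20 and −1.33, Gabrd by −2.46 and −2.34, and Glrb by −2.58 and −2.90, all of them called. The brightest probes of the receptor genes had a median red signal 31.1 times that of the negative control spots in nonvascular retina, 8.59 times in stalk and 17.5 times in tip, and 41 of the 48 genes were well above background on all 13 arrays.

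Genes that make, carry and anchor these transmitters and receptors were taken from lists of 86 partners, of which 71 are on the array and 70 were tested. Of these, 35 were called lower and 7 higher in tip than in nonvascular retina, and 33 lower and 8 higher in stalk, with medians of −0.19 and −0.20. Over all genes tested, 16.8% were called lower and 11.1% higher in tip, and 18.6% and 11.3% in stalk. The partners called higher were thus near the share of all genes. On the inhibitory side, Slc32a1, the vesicular transporter of GABA and glycine, stood at 4.33, 4.15 and 4.34 in nonvascular retina, 0.14 to 0.63 in stalk and 0.19 to 1.30 in tip, a difference of −3.54 ± 0.21 in tip (adjusted p = 9.33e-08) and −3.83 ± 0.23 in stalk (adjusted p = 8.45e-08). The GABA-synthesizing enzyme Gad1 differed by −1.62 in each, the neuronal chloride exporter Slc12a5 by −2.89 and −3.21, and Gphn, which encodes gephyrin, by −1.47 and −1.67, all called. Gad2, the second GABA-synthesizing enzyme, was not called (−0.01 and −0.28). Among glutamate genes, the vesicular transporter Slc17a6 differed by −3.03 and −3.32, the AMPA receptor auxiliary genes Cnih2 by −2.39 and −2.79 and Cacng5 by −1.86 and −2.04, and the postsynaptic scaffold gene Dlgap3 by −2.14 and −2.27. Their lists were mixed. Of 14 auxiliary genes of glutamate and GABA-B receptors, 8 were called lower and 1 higher in tip, and 7 and 2 in stalk. Of 19 scaffold genes of glutamate receptors, 9 were called lower, 1 higher and 9 not at all in each group. Dlg4 was among those not called (0.10 and 0.14). Of 7 genes tested in the Grm6 cascade of ON bipolar cells, 4 were called lower in each group, among them Gnao1, its G protein (−1.67 and −1.97), and Rgs7, a regulator of it (−1.88 and −1.96). Nyx (−0.09 and −0.08), Gnb3 (−0.17 and −0.13) and Gnb5 (0.17 and 0.36) were not called, nor was Grm6 itself.

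Some single partners were higher in the vascular groups, although the share called higher was near that of all genes. Kctd12b belongs to a family of GABA-B auxiliary subunits and stood at −0.77, −0.36 and 0.18 in nonvascular retina, at 1.66 to 2.00 in stalk and at 1.13 to 1.72 in tip, with differences of 1.82 ± 0.18 (adjusted p = 5.14e-06) and 2.10 ± 0.19 (adjusted p = 2.76e-06). With the mean of its probes it differed by 0.65 and 0.73. Its relative Kctd8 was lower, by −2.74 and −3.19. The scaffold gene Dlg1, found in many tissues, was higher by 1.12 and 1.24, and the glial glutamate transporter Slc1a3 by 1.37 and 1.65. For Slc1a3 nonvascular replicate 3, at 4.61, lay far above the other nonvascular arrays (2.85 and 2.31), and the tip call ended without nonvascular replicate 1 (1.17, adjusted p = 0.0732) or 2 (0.90, 0.0877), over a range of 5.15e-06 to 0.0877. Between tip and stalk, Gabarapl1 (0.66 ± 0.13, adjusted p = 0.0189), from a family that traffics GABA-A receptors and takes part in autophagy, and the neuronal glutamate transporter Slc1a1 (0.48 ± 0.11, adjusted p = 0.0429) were called higher in tip, and the glial enzyme Glul, which turns glutamate into glutamine, lower (−0.99 ± 0.13, adjusted p = 0.0015). The call of Gabarapl1 ended without stalk replicate 1 (0.0547) or 3 (0.0591), with a range of 0.00685 to 0.195. That of Slc1a1 ended in 14 of 24 alternatives (adjusted p 0.00278 to 0.282), among them the fits without nonvascular replicate 2 (0.0508), stalk replicate 1, 2 or 3 (0.0765, 0.105 and 0.13) and tip replicates 1 to 5 (0.0774, 0.0874, 0.0914, 0.0619 and 0.0693).

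**Figure D3:**
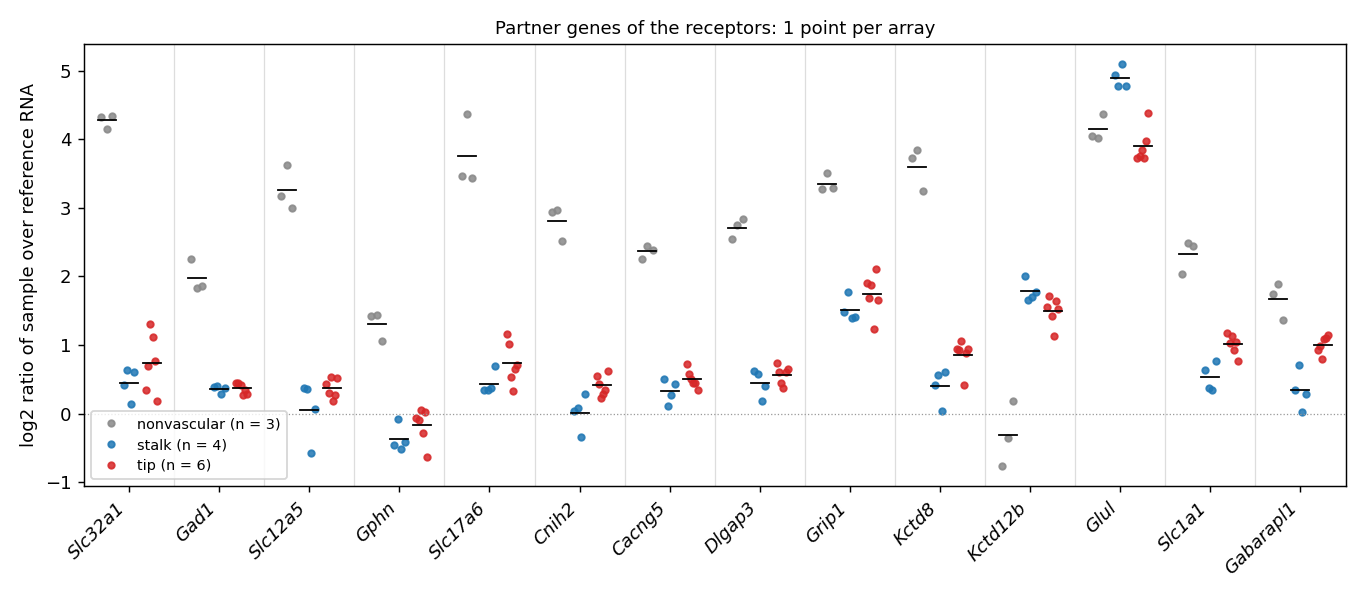
Log2 ratio of sample over reference RNA for 14 partner genes, 1 point per array, with nonvascular (n = 3), stalk (n = 4) and tip (n = 6) in grey, blue and red and a line at each group mean. Transporter, auxiliary and scaffold genes such as Slc32a1, Slc17a6 and Cnih2 lie higher in each nonvascular array than in any stalk or tip array, Kctd12b is low there, and Glul is higher in the 4 stalk arrays than in the 6 tip arrays.

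Markers of retinal neurons other than ganglion cells differed less evenly. The counts below stand beside 16.8% of all genes called lower and 11.1% higher in tip, and 18.6% and 11.3% in stalk. In lists this short, a few calls cannot be told from those shares. Amacrine and horizontal cell markers were called lower for 7 of 16 genes in each vascular group and higher for 1 (Slc6a9), with a mean log2 ratio per array of 0.78 to 0.90 in nonvascular retina, 0.15 to 0.24 in stalk and 0.13 to 0.29 in tip. Bipolar cell markers, which include Grm6, were lower for 4 of 10 genes in each group and higher for 1 in stalk (Lhx4), with means of 0.08 to 0.64, 0.10 to 0.24 and −0.03 to 0.06, so nonvascular and stalk arrays overlapped. Photoreceptor markers were lower for 5 of 16 genes in tip and 4 in stalk and higher for 1 in each (Gnb1), with means of 0.12 to 0.45 in nonvascular retina, 0.13 to 0.16 in stalk and 0.13 to 0.18 in tip. Astrocyte markers were higher for 4 of 9 genes in tip and 3 in stalk, and microglial markers lower for 7 of 13 and 6 of 13. Mueller glia markers were higher for 4 of 11 genes and lower for 2 in tip, and higher for 3 and lower for 1 in stalk, with means of 0.85 to 1.63 in nonvascular retina, 1.56 to 1.66 in stalk and 1.34 to 1.59 in tip. Erythroid markers were higher for 2 of 5 genes in tip and 1 in stalk. The part of these cell types in the differences of the receptor genes was not tested.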

How the data were processed

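Two-colour Agilent arrays measured 13 samples, 1 array each, and the number of arrays limits the precision. Spot and background intensity values, deposited as scanner output, came from Agilent Feature Extraction 8.5.1.1, per the submitters' processing notes. Its log10 ratios had a background surface removed and dyes normalized by a linear and LOWESS step, per the file headers. The deposited table of linear ratio values equals those log ratios on at least 99.9% of probes within 0.001 on the log10 scale. RNA was amplified linearly before labelling, per the labels' protocols. No dyes were swapped, so dye bias is shared by all arrays. The genome build is not given in the sources used here.

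Intensities were background corrected with limma 3.58.1 (normexp, offset 50) in R 4.3.3 and loess normalized within arrays. Outlier spots were left out, repeated spots averaged, and the brightest probe stood for its gene. Of 41174 probes, 22072 were named through an accession in RefSeq's table (GRCm38.p6), 1211 through a described symbol, and 17891 stayed unnamed and were tested as features of their own. Genes well above background on at least 3 of 13 arrays were fitted (32054), with 3 group means over all 13 arrays, limma's moderated test and Benjamini-Hochberg adjustment at 0.05. This procedure was tested on simulated data for the comparison of tip with stalk alone. The simulated differences were larger than that of Gria4, so the test does not cover differences of that size. Genes to be named, 28 in all, were those with the smallest p in each receptor class together with members fixed by their role. Some genes are counted in the totals and not reported here by name.

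The receptor genes, partner lists and marker lists were chosen with earlier results of these data known. Alternatives changed the background correction, normalization, source of the ratios, dim-gene filter, probe choice, samples fitted, array brightness and replicate number, or left out 1 array.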

Additional observations from a re-analysis of the deposited data

Results flagged for a closer look

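Each stalk and tip group was searched for an array that lay far from the others, for 43 receptor genes and 20 partner genes. Of 126 groups 6 held one, and chance flags about 1 group in 20. Among GABA and glycine receptor genes, Gabrr1 had its highest stalk value in replicate 3, at 0.46 against 0.27 to 0.31 in the other stalk arrays, and Glra3 its highest tip value in replicate 5, at 0.17 against −0.09 to 0.00. Among glutamate receptor genes, Grik5 was highest in tip replicate 5, at 1.76 against 1.30 to 1.46, and Grin2d was lowest in tip replicate 1, at −2.81 against −2.47 to −2.35. Of the partner genes, the vesicular glutamate transporter Slc17a6 was highest in stalk replicate 4, at 0.70 against 0.34 to 0.37, and the GABA-B auxiliary gene Kctd8 was lowest in tip replicate 4, at 0.42 against 0.88 to 1.06. All values are log2 ratios of sample over reference.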

How the results depend on the processing

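Of the receptor genes called lower, 21 of 26 in tip and 21 of 23 in stalk kept their call in all 13 fits without 1 array. The count lower in tip was 22 to 26 in those fits and 20 to 29 in the other settings, and the count lower in stalk 21 to 23 and 19 to 26. The stalk count of 1 higher gene was 0 to 1 without single arrays, and 0 in the red channel alone, with only the 2 groups compared and with array brightness in the model. The count of 1 gene higher in tip than in stalk was 0 to 1 without single arrays, and 0 with no background subtraction, median centring, the red channel alone, the mean of a gene's probes and array brightness. No receptor gene was called higher in tip than in nonvascular retina, or lower than in stalk, in any setting. Replicate numbers did not pair the samples, and with the replicate block 24 genes were lower in tip, 22 lower and 0 higher in stalk, and 1 higher in tip than in stalk. Where a call was involved, directions turned for Gabre in stalk (−0.12) once probes of a gene were averaged, and for Gabrr1 in tip with the red channel alone (0.33). Uncalled differences turned as well, among them Grm6 (0.64) and Gabbr1 (0.30) in tip and Gabrr1 in stalk (0.17), all in the red channel alone. The cause was not tested. Between tip and stalk, 471 of all genes tested were higher in tip and 422 in stalk, and 49 and 203 after median centring, 207 and 477 in the red channel alone, 77 and 148 with array brightness, and 300 and 384 with Feature Extraction log ratios. Scan day was not run as a block because the second day holds 1 array.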
